A study of Mus musculus with 8 samples.

Results

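The genes described here are 7 genes of the medial ganglionic eminence (MGE) and its interneurons, namely Nkx2-1, Lhx6, Lhx8, Sox6, Sst, Npy and Erbb4, out of 34866 genes measured in embryonic mouse brain. They were taken by symbol and identifier as genes of MGE progenitors and of the interneurons these give rise to, and each of the 7 matched 1 row of the counts and passed the filter on low counts. The study compared 3 mutant brains, homozygous for mutant alleles of both Sap130 and Pcdha9 (m/m at each), with 5 brains of littermate controls that are heterozygous at both genes (+/m at each). Controls thus carry 1 mutant copy of each gene, and no wild-type brain was analysed here. Mice homozygous for both alleles (the Ohia line) are used as a model of hypoplastic left heart syndrome (HLHS), a heart malformation with a small left ventricle. The SIN3 histone deacetylase complex contains the product of Sap130, and Pcdha9 makes an alpha protocadherin, which neurons use for adhesion. The mutants were embryos 195-3 and 303-2 at E14.5 and embryo 260-1 at E13.5, and the controls were 195-2, 195-6 and 303-3 at E14.5 and 260-2 and 260-3 at E13.5. All E13.5 embryos carry the title number 260 and all E14.5 embryos 195 or 303, so stage and title number cannot be told apart.

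The MGE is a ventral region of the embryonic telencephalon, patterned by Shh, whose progenitors express the homeodomain factor Nkx2-1. Nkx2-1 activates Lhx6 and Lhx8, a pair of LIM-homeodomain factors. Lhx6 is kept on in interneurons that migrate to the cortex and striatum, and Lhx8 marks cells on the way to cholinergic neurons of the basal forebrain. Sox6, an SRY-box factor, acts downstream of Lhx6 in the maturation of these interneurons, many of which later make the peptide somatostatin (Sst), neuropeptide Y (Npy) or both. Erbb4, a receptor tyrosine kinase for neuregulins, serves migrating interneurons as a guidance receptor. Several of the 7 are also made elsewhere in the embryo's brain: Nkx2-1 in the hypothalamus, Sst and Npy in neurons of the hypothalamus and brainstem, Sox6 in progenitors of the cortex, and Erbb4 in many kinds of neuron.

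Library totals ran from 36438282 to 47838448 counts, and values below are CPM, the counts scaled to a common library size, with libraries adjusted by TMM factors. Sap130 stood at 34.6, 32.6 and 35.9 CPM in mutants 195-3, 303-2 and 260-1, against 46.8 to 52.1 CPM in the 5 controls, with no overlap. Pcdha9 stood at 18.2, 12.0 and 9.47 CPM in the same mutants, against 14.9 to 24.6 CPM in the controls, so that the groups overlapped. Summed pan-neuronal genes ran from 5371 to 6553 CPM in mutants and from 5933 to 6983 CPM in controls, so neuronal genes were high in every library. They were not unchanged: over all 8 libraries 4 of these 9 genes were called lower and 1 higher by edgeR, where 20.6% of all tested genes were called. The libraries differed in regional content. The 16 telencephalon marker genes summed to 585, 1422 and 1913 CPM in mutants 195-3, 303-2 and 260-1, against 1907 to 2373 CPM in the controls, with none of the 16 at 0 in any library. The 13 Hox genes of hindbrain and cord summed to 0.384 to 420 CPM in mutants and 2.80 to 271 CPM in controls, where mutant 260-1 and control 195-6 were the low libraries. In whole-tissue RNA, fewer cells of a type and less RNA per cell cannot be told apart.

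Sequence upstream of the start was read for all 7 genes (14 RefSeq start sites, GRCm38.p6, 250 bases before each start). The stretches before Lhx6 and Lhx8 are shown because these 2 genes fell together most strongly, and a 30-base stretch before the RefSeq start of Sst (position 23890844) because Sst is a peptide gene whose level differed little. The GENCODE record of Sst starts further upstream, at 23890958, so that the stretch lies inside the gene as GENCODE gives it. All are 5′ to 3′ on the minus strand, and capitals mark the cyclic AMP response element (CRE). The stretches lie at chr2:36105409-36105658, chr3:154330660-154330810 and chr16:23890874-23890903.
Lhx6: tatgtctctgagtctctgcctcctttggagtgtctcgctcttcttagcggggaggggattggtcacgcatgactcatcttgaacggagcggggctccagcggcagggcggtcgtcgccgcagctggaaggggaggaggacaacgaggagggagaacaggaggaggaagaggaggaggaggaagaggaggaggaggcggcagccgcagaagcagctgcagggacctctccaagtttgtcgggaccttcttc
Lhx8: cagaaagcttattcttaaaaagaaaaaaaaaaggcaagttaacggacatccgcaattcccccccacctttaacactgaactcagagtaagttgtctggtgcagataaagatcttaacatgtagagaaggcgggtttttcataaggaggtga
Sst: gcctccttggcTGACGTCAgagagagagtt
The CRE, TGACGTCA, is its own reverse complement and was found once among the 14 windows, 48 bases before the RefSeq start of Sst, while 1.55% of 32851 RefSeq windows of the same length hold it. The core letters TAATTA, read by many homeodomain factors and also their own reverse complement, were in none of the 14 windows and in 4.84% of all windows. The letters CAAGTG, searched on both strands as a core of NKX2 sites, were in 1 window, that of an alternative start of Sox6, against 11.6% of all windows. A match of letters is a description of the window and not a binding site.

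Nkx2-1 (ENSMUSG00000001496.15, chromosome 12, 56531958 to 56536908, minus strand), the factor at the head of the MGE programme, was at 19.3 CPM in mutant 195-3, 8.94 CPM in mutant 303-2 and 36.7 CPM in mutant 260-1, against 23.9, 33.0 and 27.0 CPM in the E14.5 controls 195-2, 195-6 and 303-3 and 33.7 and 34.6 CPM in the E13.5 controls 260-2 and 260-3. Both E14.5 mutants lay below every control, and the E13.5 mutant lay above every control, so the groups overlapped over all 8 libraries but not at E14.5. Mutant 260-1 also differed from its controls in Hox content. The log2 difference of mutants from controls at E14.5 was -0.97 (SE 0.34, edgeR quasi-likelihood adjusted p = 0.127), which did not pass the threshold of 0.05. The 2 E14.5 mutants differed from each other more than any 2 controls of that stage.

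Lhx6 (ENSMUSG00000026890.19, chromosome 2, 36081953 to 36105408, minus strand), the factor that postmitotic MGE interneurons keep on, was at 2.08 CPM in mutant 195-3, 1.70 CPM in mutant 303-2 and 32.3 CPM in mutant 260-1. In controls it was at 46.2 CPM in 195-2, 48.8 CPM in 195-6, 43.8 CPM in 303-3, 40.8 CPM in 260-2 and 35.4 CPM in 260-3. Lhx6 was thus nearly lost from both E14.5 mutant brains, while the E13.5 mutant lay just under its lowest control. The E14.5 mutants were 22.3-fold (95% counting interval 18.2 to 27.6, from 92 counts) and 27.2-fold (21.1 to 35.6, from 60 counts) below the mean of the E14.5 controls, and the E13.5 mutant was 1.18-fold (1.12 to 1.24) below the mean of its stage. Those intervals are exact Poisson intervals of the mutant count and cover counting error only.

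Lhx8 (ENSMUSG00000096225.7, chromosome 3, 154306294 to 154330659, minus strand), the partner factor linked to cholinergic fate, was at 0.113 CPM in mutant 195-3, 0.0568 CPM in mutant 303-2 and 5.56 CPM in mutant 260-1. In controls it was at 9.19 CPM in 195-2, 12.5 CPM in 195-6, 9.11 CPM in 303-3, 11.1 CPM in 260-2 and 9.96 CPM in 260-3. The 2 E14.5 mutants held 5 and 2 reads, and all 3 mutants lay below all 5 controls. Mutant 195-3 was 90.9-fold below the mean of the E14.5 controls (interval 39.0 to 280), and the ratio for mutant 303-2 was 181 with an interval of 50.1 to 1493. At E13.5 the mutant was 1.90-fold below its controls (1.67 to 2.16).

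Sox6 (ENSMUSG00000051910.13, chromosome 7, 115470872 to 116038796, minus strand), which acts after Lhx6 in these cells, was at 34.5 CPM in mutant 195-3, 37.1 CPM in mutant 303-2 and 78.0 CPM in mutant 260-1. In controls it was at 72.7 CPM in 195-2, 75.1 CPM in 195-6, 59.6 CPM in 303-3, 89.0 CPM in 260-2 and 66.2 CPM in 260-3. Both E14.5 mutants were below every control and the E13.5 mutant was inside the control range. Sox6 therefore had the direction of Lhx6 and Lhx8 at E14.5 with a much smaller difference.

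**Figure D1:**
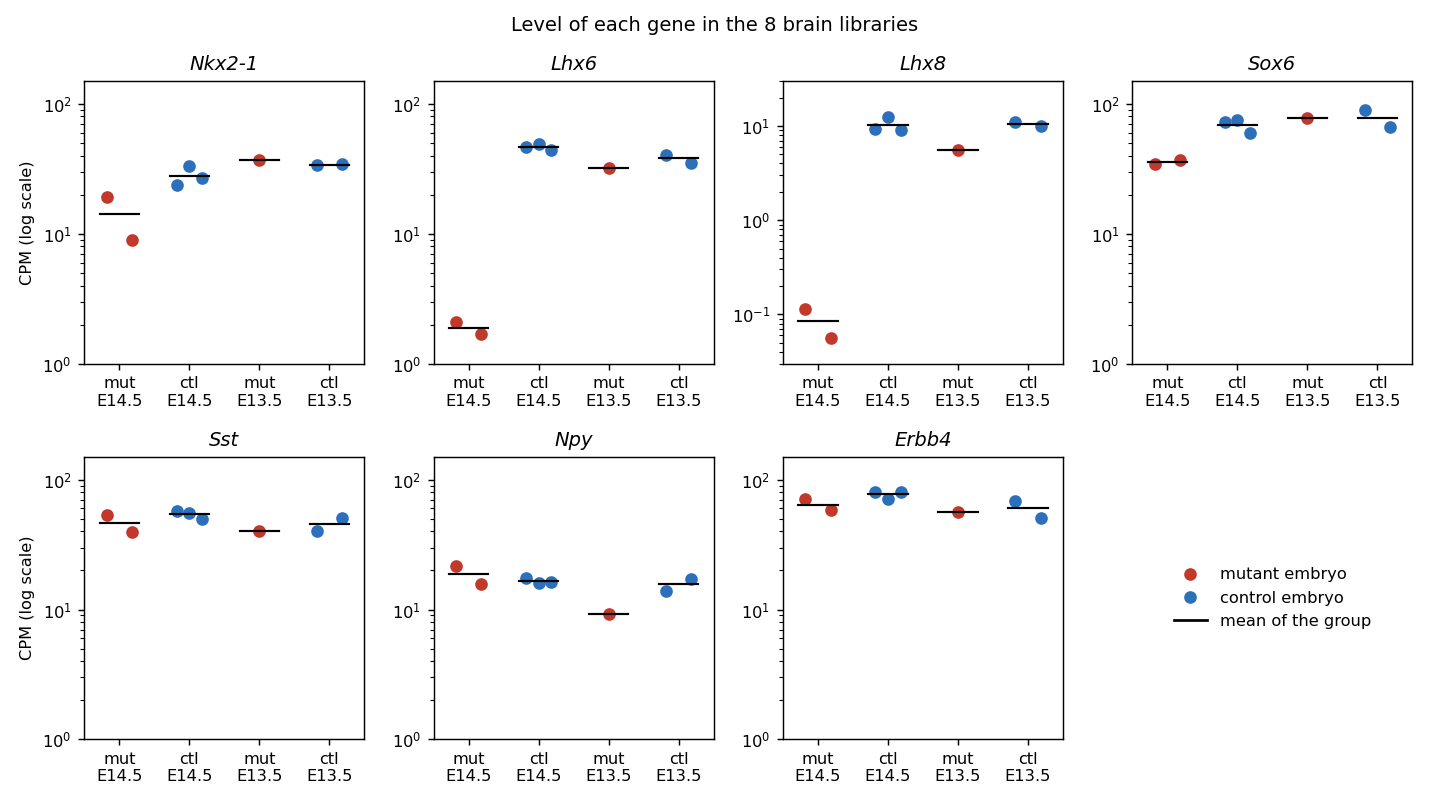
CPM on a log axis of the 7 genes in each of the 8 libraries, with mutant (red) left of control (blue) within each stage and a line at the group mean; the axis of Lhx8 reaches lower than the others. Lhx6 is at 2.08 and 1.70 CPM in the E14.5 mutants against 43.8 to 48.8 CPM in the E14.5 controls, while Sst, Npy and Erbb4 lie between 9.31 and 80.7 CPM in all libraries.

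The receptor and the peptide genes differed far less. Erbb4 (ENSMUSG00000062209.15, chromosome 1, 68032186 to 69108059, minus strand) was at 70.3 CPM in mutant 195-3, 58.2 CPM in mutant 303-2 and 56.2 CPM in mutant 260-1, against 80.5, 71.4 and 80.7 CPM in the E14.5 controls 195-2, 195-6 and 303-3 and 68.9 and 51.0 CPM in the E13.5 controls 260-2 and 260-3. The E14.5 mutants were the lowest libraries of their stage by a small margin, and the E13.5 mutant lay between its controls. The log2 difference at E14.5 was -0.26 (SE 0.11, edgeR adjusted p = 0.151).

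Sst (ENSMUSG00000004366.4, chromosome 16, 23889573 to 23890958, minus strand), the gene of the inhibitory peptide somatostatin, was at 53.5 CPM in mutant 195-3, 39.8 CPM in mutant 303-2 and 40.6 CPM in mutant 260-1. In controls it was at 57.4 CPM in 195-2, 55.2 CPM in 195-6, 50.1 CPM in 303-3, 40.4 CPM in 260-2 and 50.8 CPM in 260-3. The groups overlapped at both stages, and mutant 195-3, in which Lhx6 was at 2.08 CPM, had more Sst than control 303-3. The log2 difference at E14.5 was -0.21 (SE 0.14, edgeR adjusted p = 0.348).

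Npy (ENSMUSG00000029819.6, chromosome 6, 49822710 to 49829507, plus strand), the gene of neuropeptide Y, was at 21.8 CPM in mutant 195-3, 15.8 CPM in mutant 303-2 and 9.31 CPM in mutant 260-1. In controls it was at 17.6 CPM in 195-2, 16.0 CPM in 195-6, 16.2 CPM in 303-3, 13.9 CPM in 260-2 and 17.3 CPM in 260-3. Mutant 195-3 was the highest of all 8 libraries and mutant 260-1 the lowest, so the mutants lay on both sides of the controls. The log2 difference at E14.5 was 0.19 (SE 0.15, edgeR adjusted p = 0.451).

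Across all 17415 genes tested in the 5 E14.5 libraries (2 mutants against 3 controls), Lhx6 had the smallest p of all and Lhx8 the next. Lhx6 fell by 4.60 on the log2 scale (SE 0.14, edgeR quasi-likelihood adjusted p = 4.74e-05), Lhx8 by 6.82 (SE 0.34, adjusted p = 0.000816) and Sox6 by 0.94 (SE 0.12, adjusted p = 0.0084, rank 120). Each SE was taken as the log2 difference divided by the square root of the F statistic. That of Lhx8 is narrower than the counting intervals of its 5 and 2 reads. In this fit 3 of the 7 genes were called lower and none higher, where 8.72% of all tested genes were called in either direction and 4.32% were called lower. The median log2 difference was -0.94 over the 7 genes and 0.01 over all tested genes. The calls of Lhx6, Lhx8 and Sox6 remained under each of 11 alternatives, among them a leave-out of each library in turn. Without mutant 195-3, a fit of 1 mutant that is assumed to vary like the controls, Nkx2-1 (-1.65, edgeR adjusted p = 0.000689), Sst (-0.45, adjusted p = 0.0198) and Erbb4 (-0.42, adjusted p = 0.0185) were also called lower. DESeq2 called Nkx2-1 as well (-0.97, DESeq2 adjusted p = 0.00979), so that Nkx2-1 passed in 2 of the 11 alternatives.

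**Figure D2:**
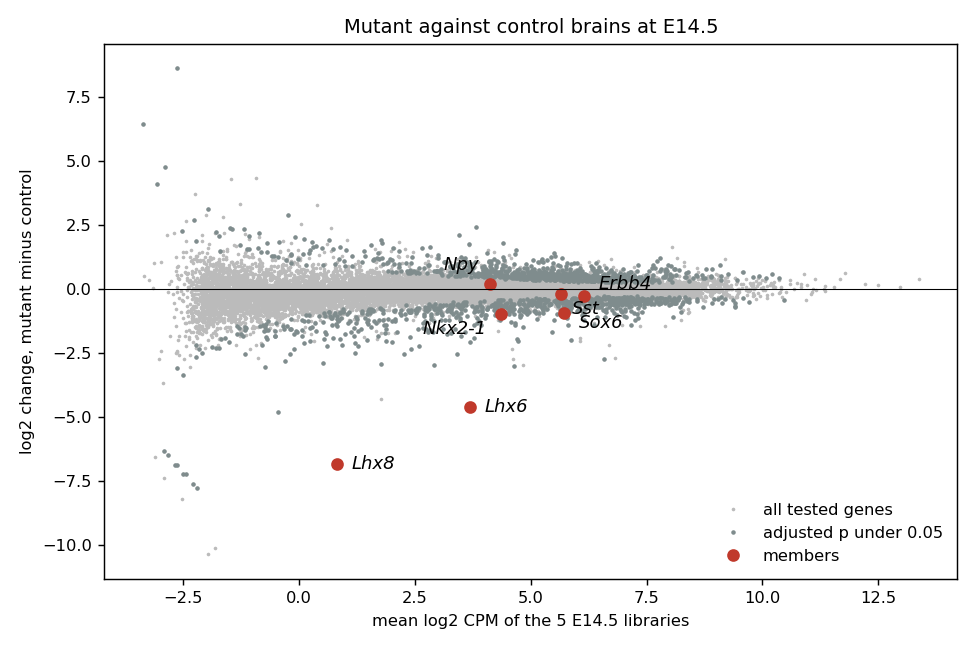
Log2 difference of mutant minus control against mean log2 CPM over the 5 E14.5 libraries for every tested gene, with called genes (adjusted p under 0.05) in dark grey and the 7 genes in red. Lhx8 at -6.82 and Lhx6 at -4.60 lie at the lower edge of the cloud, Sox6 and Nkx2-1 lie near -0.94 and -0.97, and Sst, Npy and Erbb4 lie close to 0.

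Over all 8 libraries, with stage in the model, the comparison of mutants with controls called none of the 7 genes, where 20.6% of 17357 tested genes were called. The log2 differences were -3.12 for Lhx8 (SE 1.16, edgeR adjusted p = 0.115), -2.52 for Lhx6 (SE 1.07, adjusted p = 0.156), -0.58 for Sox6 (SE 0.21, adjusted p = 0.0886) and -0.56 for Nkx2-1 (SE 0.31, adjusted p = 0.244), and between -0.21 and -0.13 for Erbb4, Sst and Npy. The large standard errors of Lhx6 and Lhx8 go with the wide spread among the mutants, 12.0 ± 17.6 CPM for Lhx6 in mutants (SD, n = 3) against 43.0 ± 5.21 CPM in controls (n = 5). Lhx8 and Sox6 had an unadjusted p under 0.05, as did 6374 of all tested genes, and DESeq2 called 3 of the 7, Lhx6 (adjusted p = 0.00966), Lhx8 (0.00224) and Sox6 (0.009). With upper-quartile scaling the genes called over the whole table split into 1240 higher and 2090 lower, against 1885 and 1691 with TMM, and none of the 7 was called. The median log2 difference was -0.56 over the 7 genes and -0.001 over all tested genes. Without mutant 260-1, Lhx6, Lhx8 and Sox6 were called lower, as in the E14.5 libraries. Without control 260-3 Sox6 alone of the 7 was called (-0.72), and without mutant 195-3 Sst alone (-0.34).

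The difference between stages in the mutant effect was tested as an interaction over the 8 libraries. The mutant effect on Lhx6 was lower at E14.5 than at E13.5 by a log2 difference of -4.37 (SE 0.20, edgeR adjusted p = 2.31e-05), and that on Lhx8 by -5.90 (SE 0.42, adjusted p = 0.00084). These had the smallest p of 17357 genes, of which 18 were called, 0.104% in either direction and 0.0807% lower. The other 5 were not called: -0.96 for Sox6 (edgeR adjusted p = 0.227), -1.09 for Nkx2-1 (adjusted p = 0.564), 0.93 for Npy (adjusted p = 0.329), -0.18 for Erbb4 (adjusted p = 0.837) and -0.05 for Sst (adjusted p = 0.969). The median was -0.96 over the 7 genes and 0.002 over all tested genes. The E13.5 side of this test is 1 mutant brain with 2 controls. No interaction can be fitted without this brain, so every alternative below keeps it and cannot show how far the calls depend on it. That mutant, 260-1, had a Hox sum of 0.384 CPM, against 255 and 271 CPM in controls 260-2 and 260-3. Its regional content thus differed from that of its controls, and the part this has in the test was not tested. The calls of Lhx6 and Lhx8 remained under all 12 alternatives, with adjusted p up to 0.00193 for Lhx6 and up to 0.0299 for Lhx8. Nkx2-1 was also called without mutant 195-3 (-1.75, edgeR adjusted p = 0.0037), and Npy without mutant 303-2 (1.16, adjusted p = 0.00654).

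Between the stages themselves, E14.5 against E13.5 with genotype in the model, none of the 7 genes was called, where 3.26% of tested genes were. The count at an unadjusted p under 0.05 was 4423 of all tested genes, with Sox6 and Erbb4 among them, and DESeq2 called Sox6 alone of the 7. In controls alone Lhx6 averaged 46.3 ± 2.52 CPM at E14.5 (SD, n = 3) and 38.1 ± 3.82 CPM at E13.5 (n = 2), a log2 difference of 0.28, whereas the fit over both genotypes gave -1.34. Lhx8 averaged 10.3 ± 1.93 CPM in E14.5 controls and 10.6 ± 0.825 CPM in E13.5 controls, a difference smaller than the spread.

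**Figure D3:**
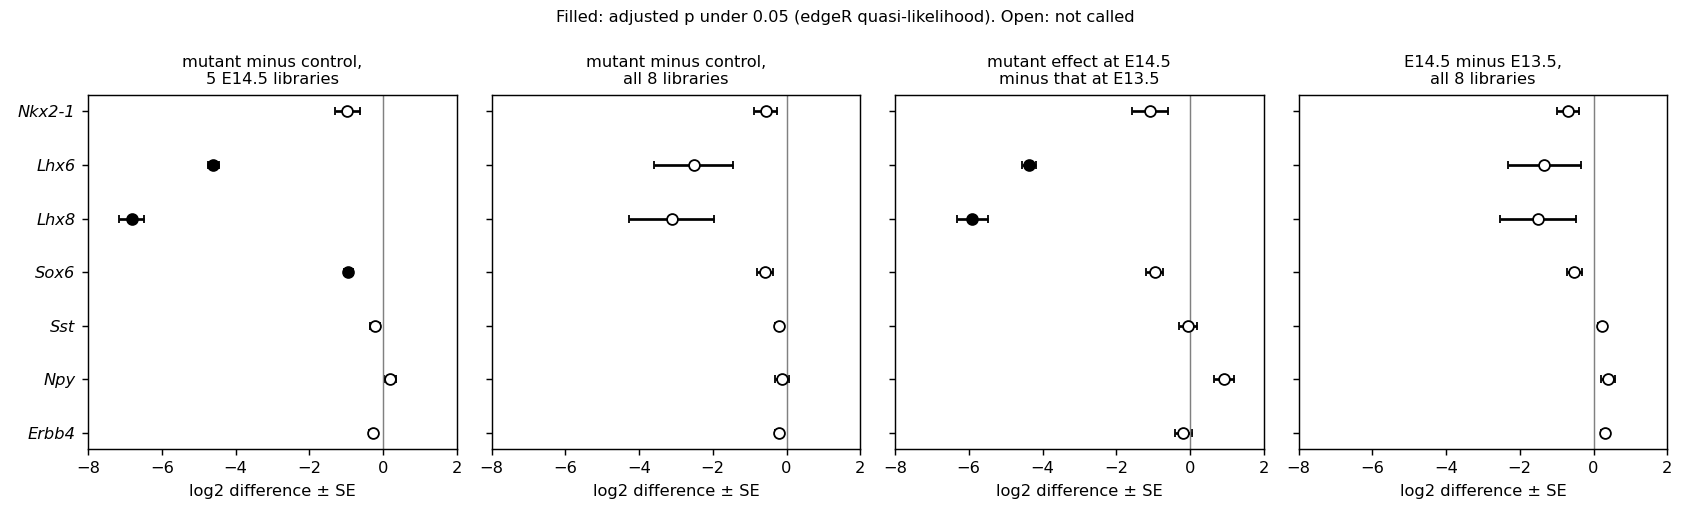
Log2 difference ± SE of the 7 genes for mutant minus control at E14.5, mutant minus control over all 8 libraries, the E14.5 effect minus the E13.5 effect, and E14.5 minus E13.5. Filled points passed an edgeR adjusted p of 0.05: Lhx6, Lhx8 and Sox6 in the first panel and Lhx6 and Lhx8 in the third.

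Levels were compared between genes per length, as RPKM (CPM per kilobase of the union of a gene's exons). In the 5 controls Sst was highest at 70.4 ± 9.11 RPKM (SD), then Npy at 28.6 ± 2.54, Nkx2-1 at 10.7 ± 1.66, Lhx6 at 8.95 ± 1.08, Erbb4 at 5.71 ± 0.982, Sox6 at 4.89 ± 0.744 and Lhx8 at 4.10 ± 0.566. Control ranges of Nkx2-1 and Lhx6 overlapped, as did those of Erbb4 and Sox6, of Sox6 and Lhx8, and of Erbb4 and Lhx8. Within each of the 5 control libraries Sox6 and Erbb4 were both above Lhx8. The order of Nkx2-1 and Lhx6, and that of Erbb4 and Sox6, was not the same in all controls. In the 2 E14.5 mutants the order, by mean ± SD, was Sst at 64.7 RPKM (74.3 and 55.2 in mutants 195-3 and 303-2), Npy at 33.2 ± 7.52, Erbb4 at 5.20 ± 0.689, Nkx2-1 at 4.97 ± 2.58, Sox6 at 2.42 ± 0.123, Lhx6 at 0.393 ± 0.055 and Lhx8 at 0.0335 ± 0.0157. Lhx6 thus moved below Sox6 and Erbb4 in those brains, while the peptide genes stayed at the top.

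Each mutant was also set against the mean of the controls that share its title number, as a description with no test. For mutant 303-2 this is the single control 303-3, here and in the percents of later paragraphs. Lhx6 stood at 4.37%, 3.89% and 84.9% of those controls in mutants 195-3, 303-2 and 260-1. In the same order of mutants Lhx8 stood at 1.04%, 0.623% and 52.7%, Sox6 at 46.7%, 62.3% and 101%, and Nkx2-1 at 67.8%, 33.1% and 108%. Sst ran from 79.4% to 95.1% and Erbb4 from 72.2% to 93.8% over the 3 mutants, and Npy was at 130%, 97.6% and 59.6%.

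Genes of GABA neurons in general are the nearest yardstick for the peptide result. Slc32a1, which encodes the vesicular GABA transporter, was at 65.4, 60.1 and 57.2 CPM in mutants 195-3, 303-2 and 260-1, which is 96.8%, 92.3% and 96.9% of the same-numbered controls. Gad1, which makes GABA from glutamate, was at 136, 101 and 99.2 CPM, or 97.7%, 68.3% and 84.1%. Gad2, its sister enzyme, was at 94.9, 80.4 and 110 CPM, and was called lower at E14.5 (log2 -0.43, edgeR adjusted p = 0.0361), a call lost without any 1 of 195-2, 195-6, 303-2 and 303-3 (adjusted p up to 0.149). In the mutants 195-3 and 303-2, these 3 genes were thus at 68.3% to 97.7% of the controls where Lhx6 was at 4.37% and 3.89%.

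The Dlx homeobox genes, which act in all ganglionic eminences upstream of GABA neuron migration, showed the stage pattern of Lhx6 and Lhx8. Dlx2 was at 8.42 CPM in mutant 195-3, 6.07 CPM in mutant 303-2 and 77.0 CPM in mutant 260-1. In controls it was at 51.1 CPM in 195-2, 64.5 CPM in 195-6, 59.0 CPM in 303-3, 66.2 CPM in 260-2 and 58.1 CPM in 260-3. Dlx2 fell by 2.99 on the log2 scale at E14.5 (edgeR adjusted p = 0.000934), and the E13.5 mutant, which differed from its controls in Hox content, was above every control. A list of 41 genes of the MGE and ventral telencephalon was chosen with earlier results of these data known, so its counts are a description only. In the interaction test 6 of the 41 had a lower mutant effect at E14.5 than at E13.5 and 0 a higher one. Of all tested genes, 0.0807% were called lower. Among the 6 were Dlx2, Dlx1, Dlx5, Dlx6 and Gsx2, of which all except Dlx2 are named after their values were seen. The interaction calls of Dlx2 and Dlx5 held in each of the 7 fits that leave out 1 library (none is possible without 260-1, the sole E13.5 mutant), whereas those of Dlx1 and Gsx2 were lost without control 260-2 or 260-3, and that of Dlx6 without 260-2, 260-3, 195-2 or 303-3 (edgeR adjusted p up to 0.261). Gsx2 is a further homeobox gene of ventral telencephalic progenitors, and its interaction log2 difference was -3.53 (edgeR adjusted p = 0.00716).

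The rest of that list moved in both directions. At E14.5, 12 of its 41 genes were called lower and 5 higher, where 4.32% of all tested genes were called lower and 4.4% higher, with a median log2 difference of -0.24 against 0.01 over all tested genes. Over all 8 libraries 6 were lower and 7 higher, together 13 of 41 where 20.6% of all tested genes were called. Nos1, which makes nitric oxide in a class of MGE interneurons and elsewhere, fell by 1.40 on the log2 scale (SE 0.10, edgeR adjusted p = 0.000481). Nos1 was at 15.6, 15.3 and 11.1 CPM in mutants 195-3, 303-2 and 260-1, against 24.3 to 48.1 CPM in controls, with no overlap and at both stages. Reln, a secreted glycoprotein of interneurons and marginal zone neurons, fell by 0.53 (adjusted p = 0.00489) in the same fit. Gbx2, a homeobox gene of the MGE and of the thalamus and anterior hindbrain, rose by 1.00 (adjusted p = 0.00687), and St18, a zinc finger factor of MGE-derived neurons, rose by 0.62 (adjusted p = 0.0089). Shh, the ligand that patterns the MGE, was also called higher in this fit (0.44, SE 0.12, adjusted p = 0.0326), a call kept in 2 of 8 fits that leave out 1 library (without 260-1 or 260-3) and lost in the other 6 (edgeR adjusted p up to 0.102). At E14.5 alone, Shh and its targets Gli1 and Ptch1 gave log2 differences of 0.55, 0.05 and 0.22, none of which passed the edgeR test (smallest adjusted p = 0.059).

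Of 24 ligands, receptors and protein partners of the 7 genes, 23 were tested, and over all 8 libraries 3 were called lower and 1 higher, a share no larger than the 20.6% of all tested genes called in this fit. The lower ones were Ldb2, a LIM-domain binding cofactor (-0.38, edgeR adjusted p = 0.0125), the somatostatin receptor Sstr4 (-1.07, adjusted p = 0.0305) and Hbegf, an EGF-family ligand of ErbB receptors (-0.46, adjusted p = 0.0407). The higher one was Sox13, a relative of Sox6 (0.39, adjusted p = 0.0447). Ldb2 was called without any 1 library, while Hbegf and Sox13 were each called in 2 of 8 such fits and Sstr4 in 3 of 8. The median log2 difference of the 23 was -0.46, against -0.001 over all tested genes. The neuregulins Nrg1, Nrg2, Nrg3 and Nrg4, which are ligands of ErbB receptors, were not called. In the interaction test edgeR called 0 of the 23, where 0.104% of all tested genes were called and 1622 had an unadjusted p under 0.05.

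**Figure D4:**
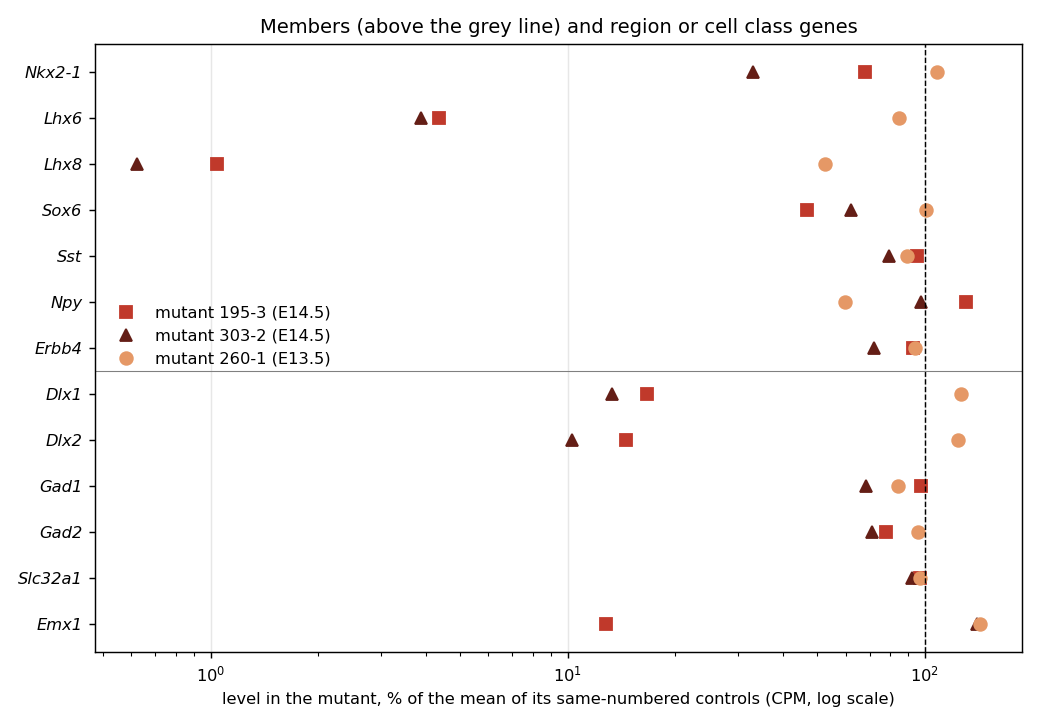
Level of the 7 genes, and of 6 genes of GABA neurons or telencephalon, in each mutant as a percent of the mean of its same-numbered controls, on a log axis with a dashed line at 100%. Mutant 303-2 has 1 such control. Lhx6 and Lhx8 are at 0.623% to 4.37% in the mutants 195-3 and 303-2, whereas Emx1 is at 12.8% in mutant 195-3 and 140% in mutant 303-2.

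Telencephalon markers moved with these results in 1 mutant far more than in the other. In mutant 195-3, 12 of the 16 telencephalon markers were under 50% of the controls, with a median of 19.9%. In mutant 303-2, 4 of 16 were, with a median of 74.0%, and in mutant 260-1, 0 of 16 were, with a median of 103%. Emx1, a factor of cortical progenitors chosen after its values were seen, was at 12.8% in mutant 195-3 and 140% in mutant 303-2. Lhx6 and Lhx8 were as low in mutant 303-2 as in mutant 195-3. The part that telencephalic content has in the levels of the 7 genes was not tested beyond these values.

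**Figure D5:**
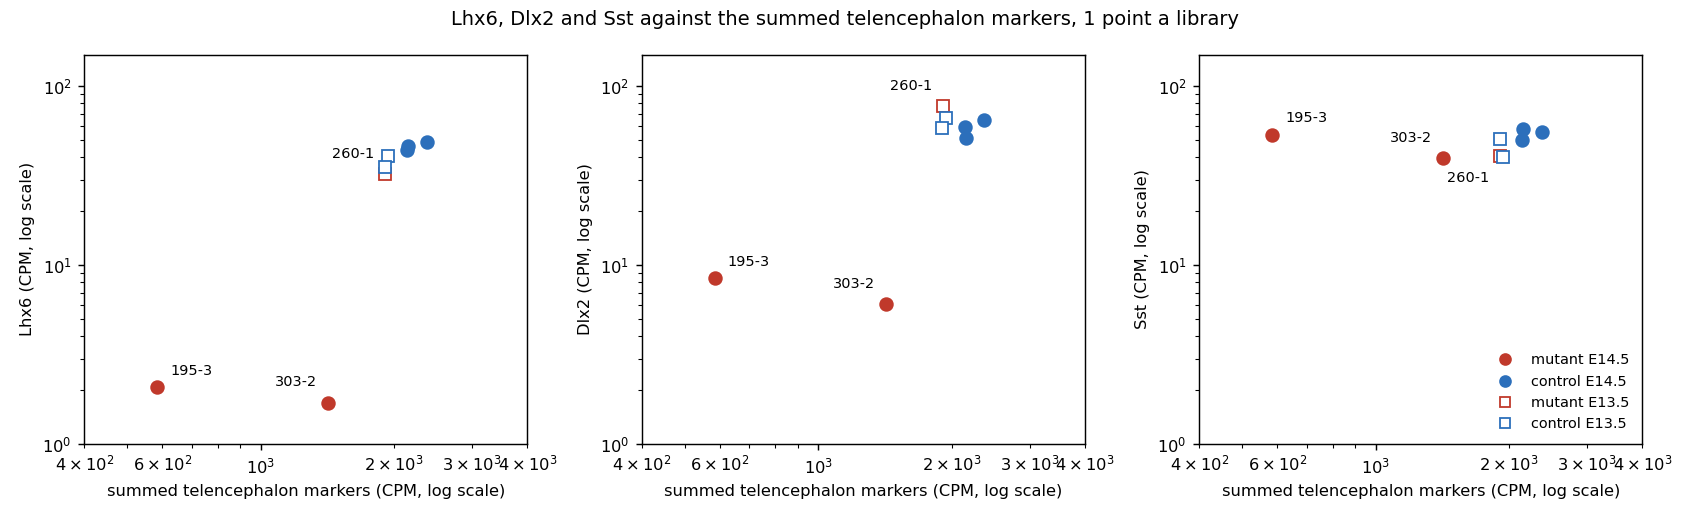
CPM of Lhx6, Dlx2 and Sst against the summed CPM of the 16 telencephalon markers, both on log axes, with 1 point a library. Mutants 195-3 and 303-2 are alike in Lhx6 (2.08 and 1.70 CPM) and in Dlx2 (8.42 and 6.07 CPM) at different marker sums (585 and 1422 CPM), and Sst is at 53.5 and 39.8 CPM in them.

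For Nkx2-1, which the hypothalamus also makes, the 18 genes of hypothalamus and preoptic area summed to 225 to 257 CPM in mutants and 167 to 204 CPM in controls. Lhx9, a LIM-homeodomain gene, made up the gap between these ranges, and the other 17 genes summed to 86.6 to 104.5 CPM in mutants and 85.6 to 106.7 CPM in controls, which overlap. Over those with at least 1 CPM in the same-numbered controls, the median level was 114% of these controls in mutant 195-3 (14 genes) and 64.2% in mutant 303-2 (15 genes), where Nkx2-1 was at 67.8% and 33.1%. Hcrt and Oxt of this list were too low to be tested. The part of hypothalamic content in the level of Nkx2-1 was not tested.

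By Pearson r of log2 CPM over the 8 libraries, among 13709 genes with a mean of at least 1 CPM, the genes most like Lhx6 were Lhx8 (r = 0.996), Aldh1a3 (0.994) and Ermn (0.994), and those most like Lhx8 were Aldh1a3 (0.997), Lhx6 (0.996) and Ermn (0.992). Aldh1a3, an enzyme of retinoic acid synthesis, was at 0.993 and 0.88 CPM in the E14.5 mutants 195-3 and 303-2 and 3.55 CPM in mutant 260-1, against 3.60 to 4.49 CPM in controls. These likenesses rest on the 2 libraries in which all 4 genes are low. Nkx2-1 was most like Aim2 (0.979), Six3 (0.976) and Msh4 (0.953), and Six3, a homeobox gene of hypothalamus and striatum, was at 24.3, 16.9 and 31.4 CPM in mutants 195-3, 303-2 and 260-1 and at 26.5 to 32.5 CPM in controls. Sox6 was most like Usp40, Proser1 and Setd7 (0.971 to 0.978), Sst most like Slfn5, Prr3 and Stox1 (0.94 to 0.959), Npy most like Snrpn, Olfm1 and Paqr7 (0.982 to 0.99) and Erbb4 most like Epm2aip1, Fam171b and Opa1 (0.983 to 0.991).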

How the data were processed

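RNA-seq of 8 embryonic mouse brains was used. The deposited table gives expected counts per gene (not normalised, 66.0% to 68.9% whole numbers) in 1 column a sample. Per the submitters' processing notes the builds were mm10 and GRCm38 and the tools edgeR 3.4.2, HTSeq 0.5.4p5 and TopHat2 2.0.9, and the step behind the fractional counts is not stated there. Per the labels' protocols the kit was TruSeq RNA v2, which does not mark strand, so reads of Nkx2-1 and Sox6 cannot be told from those of their antisense genes, and Lhx6 shares 104 exon bases with Gm27953.

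Counts were rounded, filtered (filterByExpr, minimum count 10) and scaled by TMM, then tested in R 4.3.3 with edgeR 4.0.16 (robust quasi-likelihood F test with stage and genotype, Benjamini-Hochberg over all tested genes, threshold 0.05). The common biological coefficient of variation was 14.27%. The interaction and a fit of the 5 E14.5 libraries used the same test. P-values rest on the spread between embryos of the same group, with a dispersion moderated across genes. At E13.5 there is 1 mutant, so the interaction p holds no spread between E13.5 mutants. Fits left with 1 mutant likewise borrow their spread from the other embryos. Each edgeR SE is the log2 difference divided by the square root of its F statistic. For Lhx8 at E14.5 and in the interaction it understates the counting error. The procedure was tested on simulated data. DESeq2 1.42.0 was an alternative, with other scalings, filters and leave-one-out fits. Log2 CPM used a prior count of 2. Symbols and coordinates are from GENCODE M21 on GRCm38, and sequences from RefSeq on GRCm38.p6. The members and gene lists were chosen with earlier results of these data known. All 7 genes are named. Of the other lists at most 4 called genes of smallest p are named by rule, with a few fixed reference genes and the genes most like each of the 7. Some others are said to be chosen after their values were seen. Shh, Gli1, Ptch1, the neuregulins, Hcrt and Oxt are also named outside this rule. Results on some genes of these lists are not reported here.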

Additional observations from a re-analysis of the deposited data

Results flagged for a closer look

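The mutant effect differed between the stages for 2 of the 7 genes by the interaction test. For Lhx6 the effect at E14.5 minus that at E13.5 was -4.37 on the log2 scale (SE 0.20, edgeR adjusted p = 2.31e-05). For Lhx8 it was -5.90 (SE 0.42, edgeR adjusted p = 0.00084). Both E14.5 mutants were low and the 1 E13.5 mutant was near (Lhx6) or moderately below (Lhx8) its controls. Stage, title number and the single E13.5 mutant brain cannot be told apart here.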

How the results depend on the processing

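The 3 calls at E14.5 and the 2 interaction calls kept their direction and side of the threshold under every alternative that was run. All alternatives of the interaction keep mutant 260-1, so they do not show how far it depends on that brain. Over all 8 libraries the number of the 7 genes called was 0, and it became 3 with the E14.5 libraries only, 3 in the 6 libraries in which Hox genes are expressed (which leave out mutant 260-1, so that both mutants are of E14.5), 3 with DESeq2, 1 with a length offset, 1 with a length offset and replicate block, and 0 to 3 leaving out each library. All genes called there were 3576, against 1478 without stage, 1518 with the E14.5 libraries only, 1970 with the 6 Hox libraries, and 1317 to 4984 leaving out each library. For stage, 565 genes became 341 with upper-quartile scaling (193 higher and 148 lower, against 389 and 176), 961 with no filter, 2350 with DESeq2 and 893 in controls alone, and 0 to 1419 leaving out each library, with 0 without control 260-3, 195-2 or 303-3. DESeq2 called 1 of the 7 for stage. For the interaction, 18 genes became 156 with no filter and 228 with DESeq2, and 6 to 1051 leaving out each library. At E14.5, 1518 genes became 2878 with DESeq2, 578 with the replicate block, and 50 to 3512 leaving out each library (50 without control 303-3, 145 without control 195-2 and 3512 without mutant 195-3), while the members called ran from 3 to 6. The causes were not tested. Signs turned for Npy over genotype (0.19 at E14.5 only, 0.16 in the 6 Hox libraries, -0.40 to 0.19 leaving out each library), for Lhx6 over stage (0.28 in controls only, -2.20 to 0.27 leaving out each library), and, leaving out each library, for Npy at E14.5 (-0.077 to 0.409) and the interactions of Sst (-0.28 to 0.17) and Erbb4 (-0.395 to 0.027). Same-numbered embryos deviated together with r of 0.202 (260), 0.032 (195) and 0.15 (303) over genes, so the numbers were not taken to pair embryos, and the replicate block called 2698 genes and 0 of the 7 over all libraries and 3 of the 7 at E14.5. The 5 and 2 reads of Lhx8 in the E14.5 mutants limit the precision of its fold.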

Other observations

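Genes of the neighbouring ganglionic eminences and striatum showed calls in the same brains. The gene lists of this section were chosen with earlier results of these data known, so their counts are a description only. Of 19 genes of the lateral and caudal eminences and striatum, 9 were called lower and 2 higher at E14.5, and 7 lower and 1 higher over all 8 libraries, where 8.72% and 20.6% of all tested genes were called in either direction in the E14.5 fit and the fit over 8 libraries. Htr3a, a serotonin receptor subunit of caudal eminence interneurons, was at 0.79, 0.795 and 1.49 CPM in mutants 195-3, 303-2 and 260-1, against 3.03 to 5.20 CPM in controls (log2 -1.94, SE 0.28, edgeR adjusted p = 0.00373). Drd1, the dopamine receptor of direct-pathway striatal neurons, differed by -1.09 (edgeR adjusted p = 0.00696), and Ikzf1, a zinc finger factor of striatal neurons, by -0.82 (adjusted p = 0.00455). The summed level of this list ran from 1184 to 1226 CPM in mutants and from 1197 to 1245 CPM in controls. Of 12 midbrain genes, 8 were called higher and 0 lower at E14.5, where 4.4% of all tested genes were called higher.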
